A study of Mus musculus with 8 samples.

Results

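The 44 genes here encode lysosomal enzymes and carriers, lysosomal membrane proteins, subunits of the vacuolar proton pump (V-ATPase), and transcription factors TFEB and TFE3. They were chosen by symbol, and all 44 were found among the 23997 genes of the table. The cells were marginal zone B cells of C57BL/6 mice, which lie at the marginal sinus of the spleen. The labels list 8 libraries in 2 groups, 4 of ACKR3+ and 4 of ACKR3- cells, where ACKR3 is an atypical receptor that scavenges the chemokine CXCL12. The labels give these as genotypes and the titles call the groups GFPposi and GFP-; the alleles, the age and the sex of the mice are not stated. The comparison asks which transcripts differ between marginal zone B cells with and without this receptor.

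The table gives each gene 1 estimated fragment count for each of 2 conditions, named q1 and q2, and a variance for each estimate. The labels do not say which column is which group, so the values are given by column and not assigned to ACKR3+ or ACKR3- cells. Each column pools the libraries of a condition, so the spread between libraries could not be measured here and no test was made. A log2 ratio is that of q2 over q1 after adding 1 fragment to each, so a negative value means a higher level in q1. An error after ± is 1 SD, taken to first order from both variances. A ratio was read where the higher column reached 100 fragments, which left 43 of the 44 genes here and 9582 genes in all.

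Lysosomes are acidic organelles in which proteins, glycans, lipids and nucleic acids are broken down. The V-ATPase acidifies them: its V1 sector hydrolyses ATP in the cytosol, and its membrane-bound V0 sector moves the protons. B cells deliver antigen bound to their receptor to these compartments, where cathepsins cut the antigen and the invariant chain before peptides are loaded on MHC class II molecules. TFEB and TFE3 activate many lysosomal genes through an E-box known as the CLEAR element.

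Lysosomal and V-ATPase transcripts stood at similar levels in both conditions, with 1 exception. Gla, which encodes alpha-galactosidase A, the enzyme deficient in Fabry disease, was 2.21-fold higher in q1. The other 42 genes compared were within 1.5-fold, and 29 of the 43 (67.4%) were within 10% of equal, against 63.9% of all genes compared. The next largest difference was that of Atp6v0a1, an isoform of the V0 subunit a, at 0.48 ± 0.19 toward q2. Enzymes and carriers were mostly slightly higher in q1, in 22 of 24 genes. This held for 21 with the columns scaled to equal totals and for 19 after a correction for GC content, transcript length and expression. Npc1, a membrane protein, was grouped with the carriers and is not among the 6 membrane proteins below. By contrast 5 of 6 membrane proteins and 8 of 11 V-ATPase subunits (7 corrected, and 7 scaled by the median ratio) were higher in q2. The lean of the 6 membrane proteins was not shared by 25 other lysosomal membrane proteins and transporters, of which 17 were higher in q1. Markers of macrophages, cells rich in lysosomes, were mixed: 6 of the 9 compared leaned to q1 and 3 to q2, and their median log2 ratio was -1.001. At least 2-fold apart were 5 toward q1 and 1, Ly6c2, toward q2. Of the others toward q2, Emr1 stood at 0.76 ± 0.37 and Apoe, the most abundant of these markers, at 0.13. The part of macrophages in the lean of the enzymes was not tested. In pooled cells a lower level can come from fewer cells of a type or less RNA per cell, which cannot be told apart here.

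These counts have to be read against all genes. Of the 43 genes, 1 (2.33%) was at least 2-fold apart, against 2.28% of the 9582 genes, so the number of such differences was near the background. In the direction of q1 the background was 0.438%, and in that of q2, where no gene of the set stood, it was 1.84%. At 1.5-fold the set again had Gla alone toward q1, where the background was 1.58%, and none toward q2, where it was 3.39%. Differences of more than 2 deposited SD were found in 2 of the 43 genes (4.65%), Gla and Atp6v0a1, against 6.26% of all genes. With equal totals and also corrected, Laptm5 joined them, making 3 (6.98%), against 6.35% and 6.06% of all genes. Differences of more than 1 deposited SD were found in 10 (23.3%), against 19.5%. With equal totals these were 8 (18.6% against 19.3%), and corrected 6 (14% against 18.6%), as Ctsb, Lamp2, Gaa and Neu1 fell within 1 SD. The median log2 ratio of the set was -0.05 and that of all genes 0.00, and 62.8% of the set against 49.8% of all genes were higher in q1; higher in q2 were 37.2% and 50.2%. After the correction 58.1% of the set against 55.9% of all genes were higher in q1, and both medians were -0.02.

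**Figure D1:**
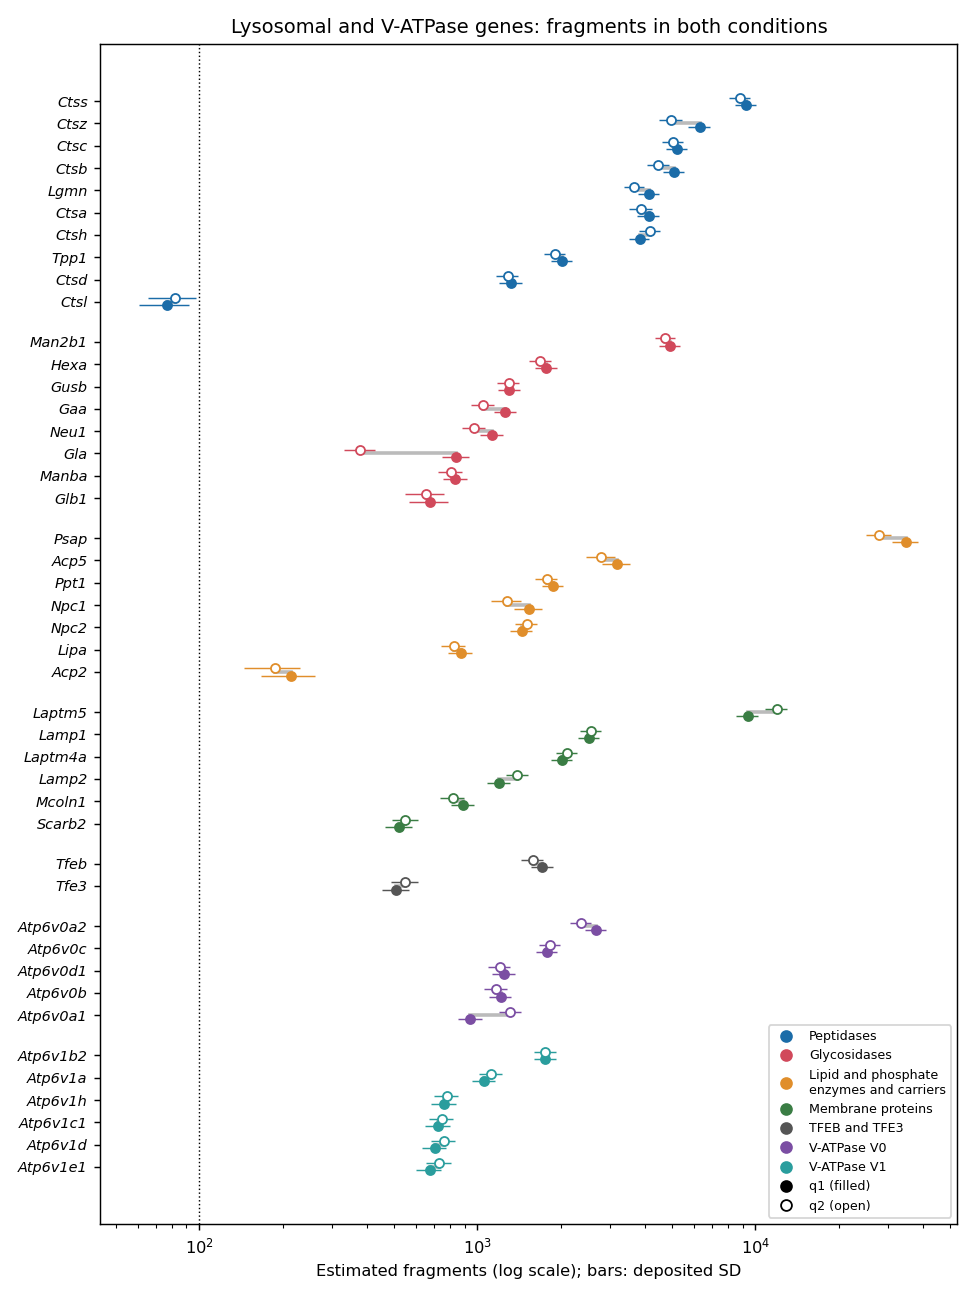
Estimated fragments of the 44 genes in q1 (filled) and q2 (open) on a log axis, grouped by role; bars are the deposited SD and the dotted line marks 100 fragments. The points of a gene lie farthest apart for Gla, with 841 and 380.1 fragments, and Ctsl lies under 100 in both columns.

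**Figure D2:**
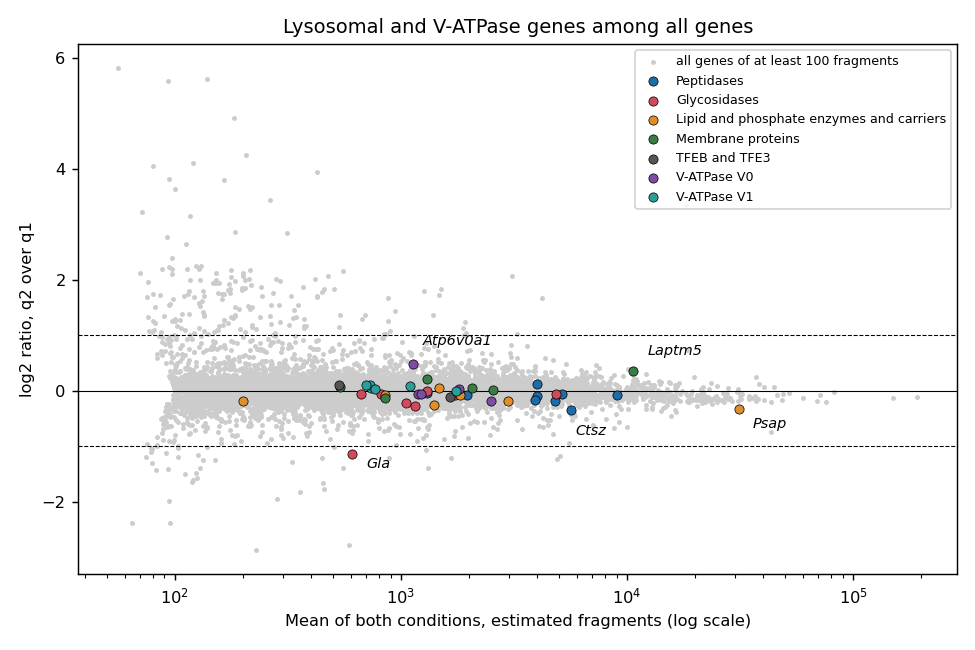
Log2 ratio of q2 over q1 against the mean of the columns (log axis) for the 9582 genes of at least 100 fragments (grey) and the 43 genes of the set (coloured by role); dashed lines mark 2-fold. Gla, at -1.14, is the single coloured point beyond a dashed line.

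Among the 8 glycosidases, which trim sugars from glycoproteins and glycolipids, all were higher in q1 (7 with equal totals, 6 corrected), with a median log2 ratio of -0.06. Gla had 841 fragments in q1 and 380.1 in q2, with deposited SDs of 94.5 and 48.7. Its log2 ratio was -1.14 ± 0.25, which is 4.66 of its SD. It ranked 32nd of the 9582 genes by the size of the difference toward q1. Without Gla the set's median was -0.05 and its largest absolute ratio was 0.48.

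Gla lies on chromosome X, 134588149 to 134601125 on the minus strand (GRCm38), and no exon of it overlaps another annotated gene. Its neighbours within 60 kilobases that have a row in the table did not share its ratio. Btk, the Bruton tyrosine kinase gene, had 4003 and 4173 fragments and a ratio of 0.06 ± 0.18. Hnrnph2, which starts on the opposite strand next to Gla, had 2039.5 and 2100.3 fragments and a ratio of 0.04 ± 0.18. Rpl36a stood at -0.11 ± 0.18 and Timm8a1 at -0.07 ± 0.26. The other X-linked genes of the set, Lamp2 and Tfe3, were both slightly higher in q2, at 0.21 ± 0.19 and 0.11 ± 0.22.

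The remaining glycosidases differed far less. Gaa, the acid alpha-glucosidase that degrades glycogen, had 1262 and 1049 fragments, a ratio of -0.27 ± 0.19. Neu1, the lysosomal sialidase, had 1133 and 974 fragments, a ratio of -0.22 ± 0.19. Both exceeded 1 deposited SD but not 2, and neither exceeded 1 when corrected (-0.18 and -0.19). Gusb, the beta-glucuronidase often used as a reference gene, was nearest to equal, with 1305 and 1295 fragments and a ratio of -0.01 ± 0.19. Hexa, a subunit of beta-hexosaminidase, stood at -0.07 ± 0.18, Man2b1, the acid alpha-mannosidase, at -0.05 ± 0.18, and Manba, the beta-mannosidase, at -0.05 ± 0.20. Glb1, the acid beta-galactosidase, had 677 and 653 fragments and a ratio of -0.05 ± 0.33. Its deposited coefficient of variation was 1.55 and 1.54 times that of genes of similar count, and an exon of it overlaps Tmppe, which had 745 and 781 fragments.

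Because TFEB and TFE3 act through E-boxes, the start regions of the genes were searched for these letters in RefSeq promoters (GRCm38.p6, 250 bases before to 50 after each start). A promoter was found for 37 of the 44 genes. The palindromic core CACGTG was present in 12 of the 37 (32.4%), against 12.6% of the genes of at least 100 fragments that had a promoter and 8.09% of all genes in the promoter table. The longer form GTCACGTG, or CACGTGAC on the other strand, which contains the core, was present in 9 of the 37 (24.3%), against 5.43% and 2.55%. Both orientations of the longer form on the same core, which make up the full CLEAR palindrome, were present in 0 of the 37, against 1.03% and 0.37%. The genes were chosen as lysosomal, and many lysosomal genes are known to carry this element. The shares therefore describe the choice of genes and are not a finding about the conditions. The stretches of Gla, the gene that differed, are shown with those of Lamp1, Ctsa, Lgmn and Atp6v0b and the upstream one of the pair in Mcoln1, whose levels were close, so that sequence and ratio can be set side by side. Each is written 5′ to 3′ along the gene's strand, with the core in capitals.
Gla, chrX:134601182-134601211: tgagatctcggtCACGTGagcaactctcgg
Gla, chrX:134601215-134601244: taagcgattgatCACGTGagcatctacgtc
Lamp1, chr8:13159096-13159125: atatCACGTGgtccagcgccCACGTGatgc
Lamp1, chr8:13159128-13159157: actggCACGTGaccacatCACGTGcggaac
Mcoln1, chr8:3500436-3500465: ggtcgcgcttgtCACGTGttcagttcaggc
Ctsa, chr2:164833758-164833787: tgtCACGTGatgcagatgctCACGTGacca
Lgmn, chr12:102439124-102439153: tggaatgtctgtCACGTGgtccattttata
Atp6v0b, chr4:117887339-117887368: ggtCACGTGgggtcggcgcatCACGTGcgc

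Both Gla stretches lie in an annotated exon of the divergent gene Hnrnph2, which starts at position 134601179. The Lamp1 and Atp6v0b stretches lie outside annotated genes, just before the start, that of Lgmn within the gene but in no exon, and that of Ctsa within an exon of the gene itself. The Mcoln1 stretch spans the annotated start at 3500457, with its core before it. Genes with and without the letters had close medians. Of the 9 genes with the longer form, 8 were higher in q1 and 1 in q2, with a median log2 ratio of -0.06. Ctsd and Atp6v0b, both among the 8, turned toward q2 when corrected (0.02 and 0.003). The ratios of the 9 ran from -1.14 for Gla to 0.02 for Lamp1. The 27 genes compared without the longer form had a median of -0.05 and ran from -0.34 to 0.48. Of these 27, 16 were higher in q1 and 11 in q2, and of all genes 49.8% were higher in q1. A match of these letters is a description of sequence and does not show that either factor binds there.

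The factors themselves were close to equal. Tfeb was at 1715 fragments in q1 and at 1584 in q2, with a log2 ratio of -0.11 ± 0.18. Tfe3 had 511 and 551 fragments, a ratio of 0.11 ± 0.22. Their ratios were of opposite sign, and both lay within 1 deposited SD of 0.

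Peptidases were abundant and close in both conditions. Of the 9 compared, 8 were higher in q1 (7 corrected) and 1 in q2, with a median log2 ratio of -0.08. Ctsz, which encodes the carboxypeptidase cathepsin Z, had the largest ratio, with 6299 and 4979 fragments, at -0.34 ± 0.19. Ctsb, an endopeptidase that also trims dipeptides, had 5088 and 4478 fragments, a ratio of -0.18 ± 0.18. Lgmn, the asparagine-specific endopeptidase that starts the processing of some antigens, had 4143 and 3674 fragments, a ratio of -0.17 ± 0.18. Of these, Ctsz and Ctsb exceeded 1 deposited SD, Ctsb neither with equal totals nor corrected.

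Cathepsin S is the main protease that removes the invariant chain in B cells, and its gene was the most abundant peptidase per length. Ctss had 9227 and 8811 fragments, a ratio of -0.07 ± 0.18. Ctsl, whose product takes that part in the thymic cortex, had 76.5 and 81.5 fragments and was the gene left out of the comparison. Per kilobase of the longest annotated transcript, Ctss had 6810 fragments in q1 and Ctsl 12.4. The longest Ctsl transcript has 6168 bases and the median one 698, whereas both lengths are 1355 for Ctss. With the median length the gap is therefore narrower. Ctsh, an aminopeptidase, was the peptidase higher in q2, with 3832 and 4177 fragments, a ratio of 0.12 ± 0.18. Ctsd, the aspartic protease cathepsin D, was nearest to equal, with 1322 and 1287 fragments, a ratio of -0.04 ± 0.19. Ctsc, which activates granule proteases, stood at -0.05 ± 0.18, Ctsa, the protective protein of Glb1 and Neu1, at -0.09 ± 0.19, and Tpp1, a tripeptidyl peptidase, at -0.08 ± 0.18.

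Lipid and phosphate enzymes and carriers had the lowest median of the role groups, -0.18, with 6 of 7 genes higher in q1. Psap, the precursor of the saposins that present sphingolipids to their hydrolases, dominated the set, with 34757 fragments in q1 and 27791 in q2. Its log2 ratio was -0.32 ± 0.22. Psap supplied 26.7% of all fragments of the 44 genes in q1 and 22.9% in q2. The 44 genes together had 0.772% of all fragments in q1 and 0.728% in q2, a ratio of the sums of 0.93, or 0.98 without Psap.

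Npc1 and Npc2 pass cholesterol out of the lysosome, and their ratios were of opposite sign. Npc1 had 1530.0 and 1276 fragments, at -0.26 ± 0.24, and Npc2 had 1443 and 1504, at 0.06 ± 0.19. Acp5, the tartrate-resistant acid phosphatase, had 3168 and 2796 fragments, at -0.18 ± 0.24. Acp2, the other lysosomal acid phosphatase, was scarce, with 214 and 188 fragments and a ratio of -0.19 ± 0.45. The SD of Acp2 was the widest of the set; its coefficient of variation was 1.56 and 1.52 times that of genes of similar count, and an exon of it overlaps Ddb2, which had 791 and 756 fragments. Lipa, the acid lipase, stood at -0.08 ± 0.20, and Ppt1, which removes palmitate from proteins, at -0.08 ± 0.18.

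The 6 genes grouped as membrane proteins leaned the other way, with 5 higher in q2 and a median of 0.07. Npc1, a membrane protein grouped with the carriers, stood at -0.26 ± 0.24. Of 25 other lysosomal membrane proteins and transporters, 17 were higher in q1, with a median of -0.07. Laptm5, a lysosomal protein of blood cells that promotes the breakdown of the B cell receptor, was at 9375 fragments in q1 and at 11940 in q2, with a log2 ratio of 0.35 ± 0.18. Lamp2, a membrane glycoprotein needed for autophagy, had 1201 and 1393 fragments, a ratio of 0.21 ± 0.19. Both exceeded 1 deposited SD but not 2. Laptm5 exceeded 2 with equal totals (0.37) and corrected (0.42), whereas Lamp2 was within 1 corrected (0.10). Lamp1, the related glycoprotein, was nearest to equal, with 2529 and 2566 fragments, a ratio of 0.02 ± 0.18. Laptm4a stood at 0.06 ± 0.18 and Scarb2, the receptor that carries glucocerebrosidase to lysosomes, at 0.08 ± 0.22. Mcoln1, the calcium channel TRPML1, was the one higher in q1, with 889 and 817 fragments, a ratio of -0.12 ± 0.20.

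The V-ATPase sectors were level apart from 1 subunit gene. Atp6v0a1 was at 945 fragments in q1 and at 1316 in q2, with a log2 ratio of 0.48 ± 0.19, which is 2.46 of its SD. It ranked 404th of the 9582 genes by difference toward q2. Atp6v0a2, the other isoform of the same subunit in the set, had 2666 and 2361 fragments and a ratio of -0.18 ± 0.18, so the isoform genes had ratios of opposite sign. Per kilobase of the longest transcript, Atp6v0a1 had 227 and 316 fragments and Atp6v0a2 had 499 and 442. Atp6v0c, the proteolipid of the rotor, stood at 0.04 ± 0.18 and was nearest to equal in the V0 sector. Atp6v0b, a second proteolipid, stood at -0.06 ± 0.19, and Atp6v0d1, which joins rotor and stalk, at -0.05 ± 0.19.

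All 6 genes of the V1 sector were higher in q2 (5 scaled by the median ratio, 4 corrected), none of them by more than 1 deposited SD, and the median was 0.07. Atp6v1b2, a subunit of the catalytic head, had 1753.5 and 1753.8 fragments, the smallest absolute ratio of the set. Atp6v1e1, of the peripheral stalk, had 674 and 728 fragments, the largest ratio of the sector at 0.11 ± 0.21. Atp6v1d, of the central stalk, also stood at 0.11 ± 0.21, Atp6v1a, the ATP-hydrolysing subunit, at 0.09 ± 0.19, Atp6v1c1 at 0.04 ± 0.21, and the regulatory subunit gene Atp6v1h at 0.03 ± 0.20.

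**Figure D3:**
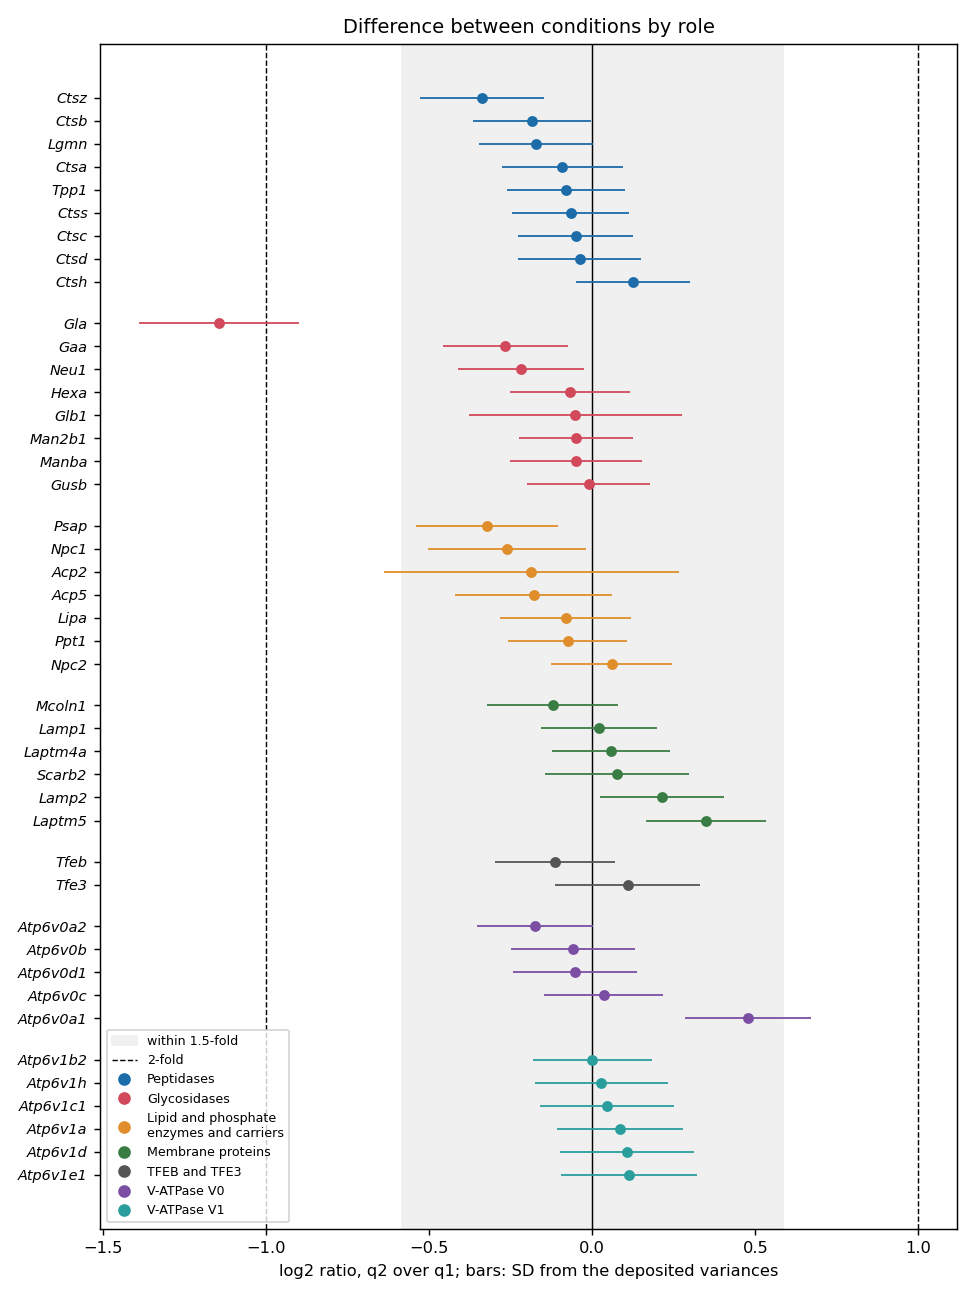
Log2 ratio of q2 over q1 for the 43 genes compared, grouped by role; bars are the SD from the deposited variances, the grey band marks differences within 1.5-fold and the dashed lines 2-fold. Gla lies beyond the dashed line on the left, 22 of 24 enzymes and carriers (19 corrected) lie left of 0, and the 6 V1 genes (4 corrected) lie at or right of it.

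Among overlapping genes with a count in the table, those of at least 100 fragments share exon sequence with 6 of the 44 genes: Ctsa, Ctsb, Ctsz, Ppt1, Acp2 and Glb1. Another 6, Npc1 and Atp6v0a2 among them, overlap annotated genes whose counts were not analysed here; the coefficient of variation of Npc1 was 1.27 and 1.33 times that of genes of similar count. How the counting treated strand and shared exons is not stated, so the values of these 12 are less certain.

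Levels within the set spanned a wide range once divided by length. Per kilobase of the longest annotated transcript, Psap led with 13081 fragments in q1 and 10460 in q2, above 99.2% and 99.1% of the genes compared. Ctss followed with 6810 and 6503, and Laptm5 with 3606 and 4592. At the other end stood Ctsl, with 12.4 and 13.2, Acp2, with 45.9 and 40.3, and Tfe3, with 80.8 and 87.1. The median gene of the set had 522 fragments per kilobase in q1 and 499 in q2, against 230.4 and 233 for all genes compared, and 33 of the 44 genes were above that general median in each column. Gla passed from percentile 55.4 in q1 to percentile 27.5 in q2. With the median transcript length of each gene in place of the longest, Laptm5, Psap and Ctss were again the 3 highest, in that order. At the low end Scarb2 took the place of Acp2: Ctsl ranked 44th, Scarb2 43rd, Tfe3 42nd and Acp2 41st.

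Other genes of the lysosome were examined through 5 lists of 123 genes, of which 103 reached 100 fragments. Of the 103, 65 were higher in q1 (60 with equal totals, 67 corrected) and 38 in q2, with a median log2 ratio of -0.06. Higher in q1 were 49.8% of all genes compared (44.7% with equal totals, 55.9% corrected). None of the 103 was 2-fold apart, against 2.28% of all genes. At 1.5-fold, where the background was 1.58% toward q1 and 3.39% toward q2, 1 gene was apart. That gene was Slc15a3, a peptide and histidine transporter of the lysosome, with 77.7 and 119 fragments, a ratio of 0.61 ± 0.39. Of 33 other hydrolases and cofactors, 25 were higher in q1 (23 with equal totals, 26 corrected), with a median of -0.09. Of 25 other membrane proteins and transporters, 17 were higher in q1 (18 corrected), with a median of -0.07. Of 7 other V-ATPase subunits, 5 were higher in q2 (4 corrected), with a median of 0.02. The 16 genes of nutrient sensing and TFEB control had a median of 0.01, and the 22 genes of delivery to lysosomes had a median of -0.03.

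**Figure D4:**
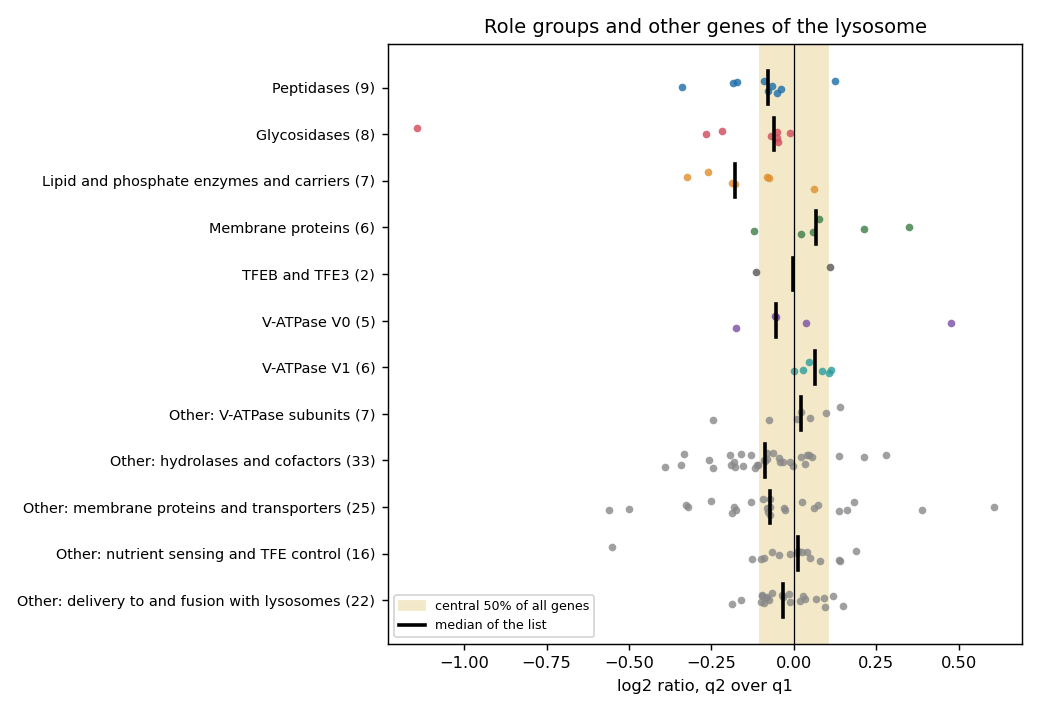
Log2 ratio of q2 over q1 for each gene (points) of the 7 role groups and of 5 lists of other lysosomal genes, with the number of genes in parentheses; black bars are medians and the shaded band holds the central 50% of all genes, from -0.10 to 0.10. Among the 12 medians, that of the lipid and phosphate group, -0.18, is the one outside the band.

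Some facts of the whole series bear on these values. The columns held 16877559 and 16653774 fragments. Ackr3 had 1030.0 fragments in q1 and 149 in q2, which was not used to assign the columns. The B cell genes Cd79a and Ms4a1 were abundant in both columns, with ratios of -0.02 and -0.10, and Cr2, which encodes the complement receptor CD21 of marginal zone cells, had 81167 and 70851 fragments. Marker genes of other cell states differed more than the lysosomal genes did. All 12 cycling genes were higher in q2, summing to 2797 and 10587 fragments, and so were 10 of 11 plasma cell genes, with 32423 and 70986 over the 11, and 9 of 9 germinal center genes, with 738.5 and 3130 over the 9. Without Igj, the most abundant gene of the plasma cell list, that list summed to 29212 and 38141 fragments over 12 genes. Of 15 marginal zone genes 14 were higher in q1. Follicular genes were higher in q2 in 6 of 8. Macrophage markers reached 100 fragments in 9 of 23 genes, of which 6 were higher in q1 and 3 in q2. The 5 at least 2-fold higher in q1 were Csf1r (188 and 78.8 fragments), Vcam1 (188 and 70.5), Slc40a1 (184 and 64.8), Hmox1 (212 and 88.3) and Spic (138 and 68.5), and 1, Ly6c2 (59.4 and 208), was at least 2-fold higher in q2. The other compared markers higher in q2 were Emr1 (85.8 and 146 fragments, 1.69-fold) and Apoe (1957 and 2145). Below 100 fragments, C1qa had 61.2 and 21.8, C1qb 60.5 and 27.0, and C1qc 79.4 and 24.1, whereas Lyz2 was level at 63.5 and 62.9. The sum of the macrophage list was 3711 in q1 and 3301 in q2, or 1754 and 1156 without its most abundant gene, Apoe, and none of its genes was at 0 in both columns. The part of these cell states in the ratios of the lysosomal genes was not tested.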

How the data were processed

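RNA was extracted with Trizol and made into libraries with an Illumina TruSeq RNA kit, per the labels' protocols, from 8 samples. The submitters' processing notes name Cuffdiff 2.2.1, TopHat2 2.0.14 and cutadapt 1.8.1 and the build mm10; annotation, strand setting and scaling were not given in the sources used. The deposited table holds, per the file headers, an estimated count of fragments for each gene and condition, with its variance. Whether that variance refers to 1 library or to a condition's mean is not stated, and its isoform assignment part was 0 for every gene. The headers also name a dispersion part, and how it was estimated was not given in the sources used.

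From these estimated counts log2 ratios (q2 over q1) were formed after adding 1 to each, with a first-order SD, in Python 3.11.15 (pandas 2.3.3, scipy 1.17.1), and tested on simulated data. Genes under 100 fragments in the higher column were left out. Typical coefficients of variation are running medians over 101 genes. Transcript lengths and positions come from GENCODE M21, which is on GRCm38 (mm10), to which all 44 genes matched, and promoters from RefSeq (GRCm38.p6). All 44 genes are named, with both counts given where the gene is 1.5-fold apart or the extreme of its role group; some further counts were chosen after they were seen. The 44 genes and all lists were chosen with earlier results of these data known. Dendritic cell, neutrophil and T cell marker lists had 3, 0 and 2 genes above 100 fragments and sums of 602 and 762, 53.4 and 52.3, and 848 and 1266. Alternatives were other minimums, pseudocounts, scalings, a correction for GC content, transcript length and expression, other transcript lengths and promoter windows.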

Additional observations from a re-analysis of the deposited data

How the results depend on the processing

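No paired analysis was possible because libraries are pooled by condition, which also kept single libraries from being left out. Gla was the 1 gene at least 2-fold and at least 1.5-fold higher in q1, and 0 genes were so in q2, under minimums of 20 and 500 fragments, pseudocounts of 0 and 10, equal totals, the median ratio and a fit that removed trends with GC, transcript length and expression. Counting error was taken from exact 95% binomial intervals. None of 98 recomputed medians moved beyond the typical counting error of a single gene. That yardstick is wide for a median, so it cannot show that the medians were stable. The median of the set ran from -0.05 to -0.02, the value when corrected. The V0 median, -0.05, was 0.003 corrected. Of 215 recomputed ratios of single genes, 8 moved beyond counting error, all corrected, and 8 near 0 changed sign, 6 of them corrected, among them Atp6v1h (-0.11) and Atp6v1c1 (-0.01). The correction also shifted all genes, of which 55.9% were then higher in q1. The lowest counts, those of Ctsl and Acp2, came with the widest SDs, 0.40 and 0.45. Median fragments per kilobase became 1221 in q1 and 1182 in q2 with the median transcript length, since those transcripts are shorter. The share of promoters with CACGTG was 29.7% before the start alone, and 21.6% for the longer form.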

Other observations

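Paralogs of several genes of the set were looked up after their values had been seen. The third isoform gene of the V0 subunit a, Tcirg1, was at 2965 fragments in q1 and at 3007 in q2, with a log2 ratio of 0.02 ± 0.18, and the fourth, Atp6v0a4, had 0.24 and 0.21 fragments, too few for a ratio. Beside these, Atp6v0a1 stood at 0.48 ± 0.19 and Atp6v0a2 at -0.18 ± 0.18. The TRPML channel genes related to Mcoln1 were both higher in q1: Mcoln2 had 1030.2 and 822 fragments, a ratio of -0.33 ± 0.20, and Mcoln3 had 437 and 308 fragments, a ratio of -0.50 ± 0.25. Laptm4b, a relative of Laptm5 and Laptm4a, had 109.6 and 74.0 fragments and a ratio of -0.56 ± 0.39, opposite in sign to both.

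Grn, which encodes progranulin, a secreted protein that is delivered to lysosomes together with prosaposin, had 4036 and 3075 fragments, a ratio of -0.39 ± 0.18. Psap had a ratio of -0.32 ± 0.22, in the same direction. Ifi30, the thiol reductase that unfolds antigens in lysosomes, was level, with 3293 and 3264 fragments.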
